A study of Ovis aries with 6 samples.

Results

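Slow skeletal muscle fibres build their contractile filaments from their own set of proteins, and the transcripts of 10 of these genes were followed here in sheep longissimus muscle. The genes encode 3 myosin heavy chains (OMYHCS, which is the name used in the files for the slow chain, MYH6 and MYH7B), 3 myosin light chains (MYL2, MYL3 and MYL6B), the slow troponin subunits TNNT1, TNNC1 and TNNI1, and the tropomyosin TPM3. They were found by gene symbol among 23144 gene rows. In all, 9 of the 10 symbols had a row. The symbol TNNI1 had none, but the row LOC101112151 carries the RefSeq gene ID of TNNI1 (assembly ARS-UI_Ramb_v3.0), and its values are given under that name beside those of the 9 genes found by symbol.

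The muscle came from females aged 1 year of 2 breeds of sheep, 3 animals of the Qianhua Mutton Merino (QHMM) and 3 of the Small Tail Han (STH), kept under the same natural conditions with no treatment. Each of the 6 animals gave 1 library. QHMM is a new breed for meat and wool and STH a local Chinese breed, and the comparison asks how the muscle transcriptomes of the breeds differ. Breed is the only difference between the groups that the labels state, and litter, diet and slaughter day are not given in them.

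Force in striated muscle comes from myosin heads pulling on actin. Each heavy chain carries an essential and a regulatory light chain at its neck, and the heavy chain isoform sets how fast the head splits ATP. Troponin C binds calcium, troponin I holds the thin filament switched off, and troponin T ties both to tropomyosin, which lies along the actin filament. Slow (type I) fibres use isoforms that are in large part shared with the heart, contract slowly and resist fatigue, whereas longissimus is a mixed muscle in which fast fibres usually prevail.

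Library totals on genes lay between 10982191 and 14334544 reads, so the abundant transcripts described here rest on large counts and the number of animals limits the precision. The TMM factors, which correct for differences in library composition, were 0.852 in QHMM replicate 2 and 0.853 in STH replicate 3, against 1.01 to 1.20 in the other 4 libraries. General skeletal muscle markers (ACTA1, CKM, DES, MYOT, TTN and NEB) were abundant in all libraries, with summed normalized counts from 1406197 to 2831587, whereas NPPA and NPPB, natriuretic peptides of heart muscle, were listed at 0. A listed 0 need not be a level, since the fast troponin TNNT3 is also at 0 in all 6 libraries. Reads of the 10 slow-fibre rows made up 3.69%, 2.76% and 3.48% of the 3 QHMM libraries and 1.45%, 1.63% and 1.12% of the 3 STH libraries. Their 95% Wilson intervals, which cover counting error only, extended at most 0.0102 percentage points to either side. OMYHCS alone accounted for 43.0% to 59.8% of those reads. In bulk tissue, fewer slow fibres and less slow-fibre RNA per fibre cannot be told apart.

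Levels per length were compared with the deposited RPKM values (counts scaled by gene length and by the library total). In QHMM, the order from high to low was MYL2 (mean 6238 ± 1424 RPKM, SD, n = 3), TNNC1 (5143 ± 1460), TNNT1 (4366 ± 934), OMYHCS (2800 ± 504), MYL6B (1177 ± 709), TPM3 (758 ± 294), MYL3 (678 ± 421), TNNI1 (191 ± 37.7), MYH6 (170 ± 44.1) and MYH7B (19.7 ± 5.44). The same order held in STH except that MYL6B moved to the seventh place, behind TPM3 and MYL3. STH means were 2505 ± 1041 RPKM for MYL2, 2473 ± 545 for TNNC1, 1810 ± 286 for TNNT1 and 1215 ± 247 for OMYHCS. Not every step in the order was larger than the spread between animals. The animals of MYL2 overlapped with those of TNNC1 in both breeds, as did TNNC1 with TNNT1, MYL6B with TPM3 and TPM3 with MYL3. MYL3 and TNNI1 overlapped in STH but not in QHMM, and TNNI1 and MYH6 in QHMM but not in STH. OMYHCS lay below TNNT1 in each library, and MYH7B was the lowest in every library.

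**Figure D1:**
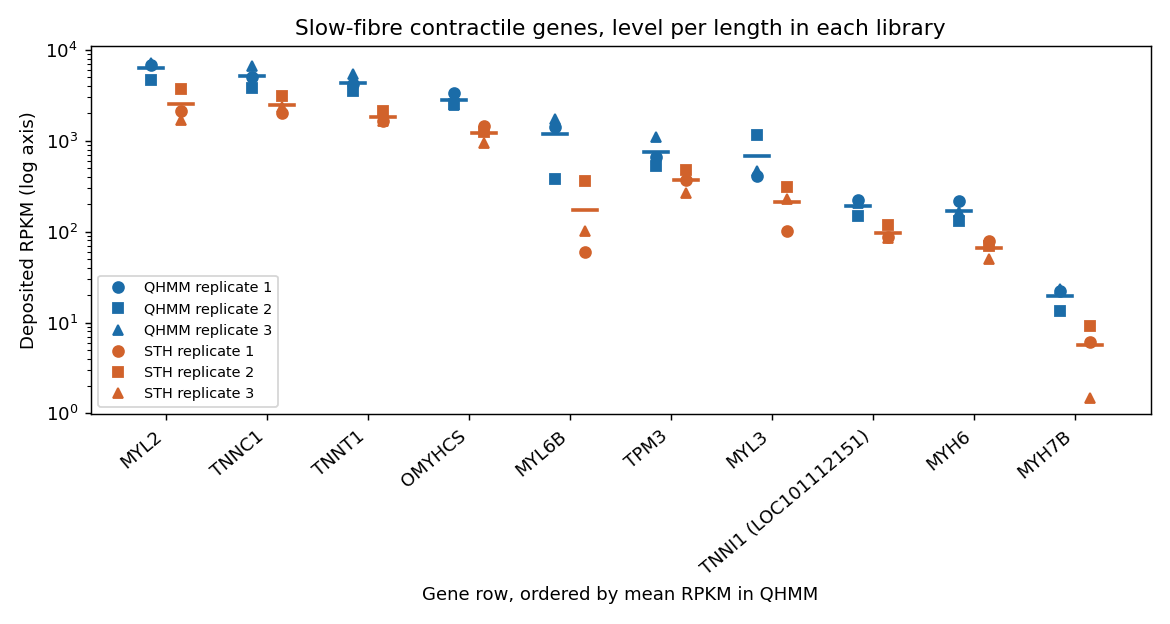
Deposited RPKM values of the 10 slow-fibre genes in each of the 6 libraries, on a log10 axis, with 1 point per animal and the genes in the order of their QHMM mean. The STH points lie below the QHMM points for each gene, and come closest for MYL6B, with 364 RPKM in STH replicate 2 and 382 RPKM in QHMM replicate 2.

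With normalized counts, which are counts scaled by the TMM factors, all 9 genes found by symbol were lower in STH, and in each of them the 3 STH animals lay below the 3 QHMM animals. By edgeR's quasi-likelihood test with Benjamini-Hochberg adjustment over 12506 genes, 6 of the 9 were called lower in STH, the call rule being an FDR under 0.05 with a fold change over 1.5 either way. Across all genes tested, 1.83% were called lower in STH, 1.62% were called higher, 3.45% were called in either direction, and 11.7% had all STH animals below all QHMM animals. The called genes were OMYHCS, MYH6, MYH7B, MYL2, MYL6B and TNNT1. MYL3, TNNC1 and TPM3 did not reach the FDR threshold, and the TNNI1 row was called. The log2 fold changes (STH vs. QHMM) of the 9 genes ran from -2.82 to -1.14 with a median of -1.44, against a median of 0.023 over all genes tested. Of the 9, only MYH6 was called without QHMM replicate 1 or without QHMM replicate 3 (0.635% and 0.632% of all genes called lower), and 2 were called without QHMM replicate 2 (0.97%). In the fits without an STH library, 3 were called without replicate 1 (1.98%), 4 without replicate 2 (0.692%) and 4 without replicate 3 (1.41%). With both libraries of low TMM factor left out, 0 of the 9 were called by edgeR, when 0.0471% of all genes were called lower, while all 9 had a negative log2 fold change and an unadjusted p below 0.05, where 15.4% of all genes had such a p in either direction. DESeq2 called 8 of the 9 (4.44% of all genes lower).

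**Figure D2:**
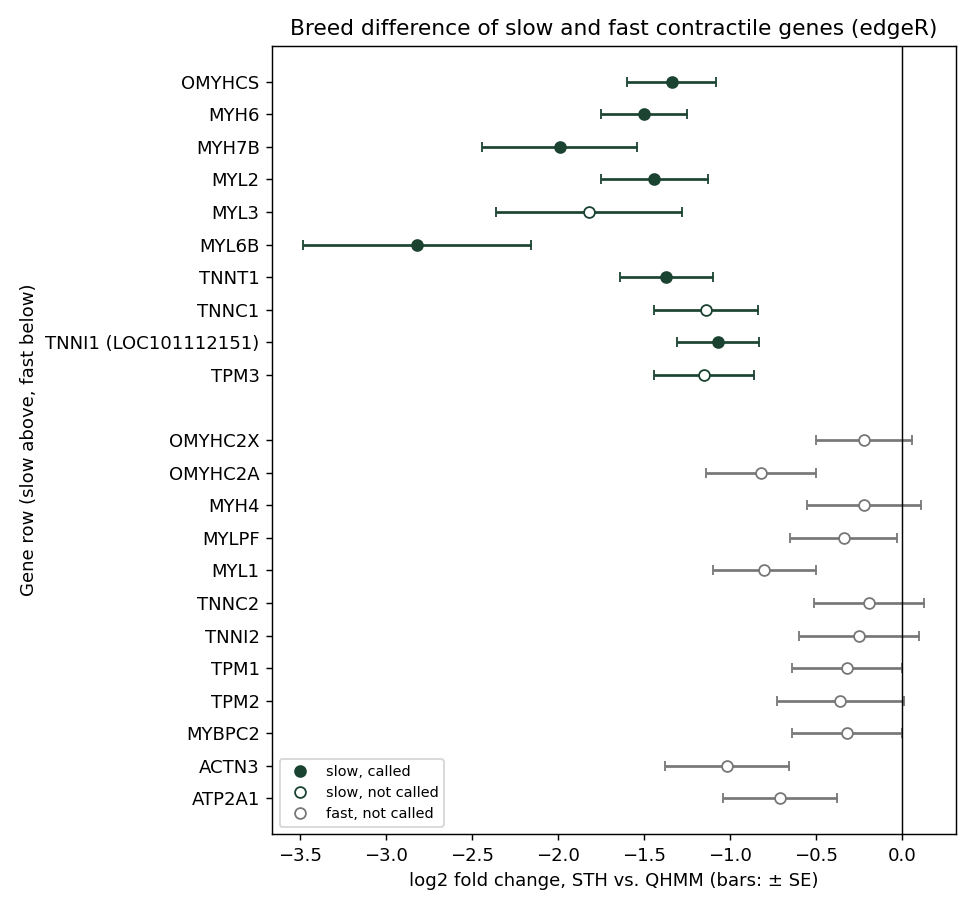
Log2 fold changes (STH vs. QHMM) of the 10 slow-fibre genes and of the 12 tested fast-fibre genes from the edgeR fit, with bars of 1 SE and filled points for called genes. The slow-fibre genes lie between -2.82 and -1.07, and the fast-fibre genes between -1.02 (ACTN3) and -0.19 with none called.

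Among the heavy chains, OMYHCS is the main motor of slow fibres and was the most abundant of the 3. Its normalized counts were 260037, 230868 and 188058 in the QHMM animals and 94057, 87720 and 87102 in the STH animals. After TMM scaling the STH values were close together, with a coefficient of variation of 4.29% against 16.0% in QHMM. In RPKM, without the TMM factors, the coefficient was 20.3% in STH and 18.0% in QHMM. The lowest QHMM animal was 2.0 times the highest STH animal in normalized counts and 1.72 times in RPKM. OMYHCS fell by 1.34 on the log2 scale in STH (SE 0.26, edgeR FDR 0.0251), which is 2.53-fold lower. The call was lost when any 1 of the QHMM replicates or STH replicate 2 was left out, with values between -1.45 and -1.25 and an FDR of at most 0.111.

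MYH6, the alpha heavy chain of the heart atrium that some skeletal muscles also express, fell with it. Normalized counts of MYH6 were 15759, 11208 and 11571 in the QHMM animals and 4810, 4606 and 4241 in the STH animals. The lowest QHMM animal was thus well above the highest STH animal. The log2 fold change was -1.50 (SE 0.25, edgeR FDR 0.0135), and MYH6 was the only one of the 10 to be called in all 6 fits that left out 1 library, with values from -1.58 to -1.35. Per length, MYH6 stood at 0.0644, 0.0516 and 0.0653 of OMYHCS in the QHMM animals and at 0.0543, 0.0558 and 0.0517 in the STH animals, ranges that overlap. These chains are close relatives and uniquely mapped reads alone were counted, so their relative level is uncertain. Cardiac markers other than MYH6 were near 0, with a summed normalized count of 51.5 to 81.2 in QHMM and 41.7 to 56.1 in STH over the 7 of 8 that had a row.

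MYH7B encodes an ancient slow heavy chain that is transcribed at a low level in many muscles. It had normalized counts of 1681, 1204 and 1729 in QHMM and 390, 637 and 133 in STH. STH replicate 3 was the lowest animal, and STH replicate 2 the highest of its breed. MYH7B fell by 1.99 on the log2 scale (SE 0.45, edgeR FDR 0.0409). It kept its call without STH replicate 2 and without STH replicate 3, at -2.57 and -1.58, and lost it without any of the other 4 libraries. The log2 ratio of MYH7B to OMYHCS was lower in STH by a mean of 0.92, with overlapping breeds (exact permutation test, two-sided, p = 0.3, 0.550 after Benjamini-Hochberg adjustment). That adjustment covered 11 ratios formed after the values were seen. A further such ratio, OMYHCS to the fast chain MYH4 alone, was left out of it.

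The light chains had the widest range of changes. MYL2, the slow regulatory light chain, had normalized counts of 68093, 54097 and 70198 in QHMM and 17912, 33366 and 19875 in STH. STH replicate 2 stood apart from the other STH animals and still lay below each QHMM animal. MYL2 fell by 1.44 on the log2 scale (SE 0.31, edgeR FDR 0.0351), and the value was -1.78 without STH replicate 2, the only 1 of the 6 libraries whose omission left it called. The RPKM ratio of MYL2 to OMYHCS was 2.04, 1.82 and 2.90 in QHMM and 1.48, 2.96 and 1.77 in STH, and the breeds overlapped (exact permutation test, two-sided, p = 0.6, adjusted 0.660).

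MYL6B, an essential light chain made in slow muscle and in non-muscle cells, had the lowest log2 fold change of the 10 genes. Normalized counts reached 14175, 4589 and 17334 in QHMM, against 510, 3377 and 1213 in STH. QHMM replicate 2 and STH replicate 2 nearly met, the former being 1.36 times the latter, and within a breed the animals differed by 3.78 times in QHMM and by 6.62 times in STH. MYL6B fell by 2.82 on the log2 scale (SE 0.66, edgeR FDR 0.0459), a 7.08-fold difference. Without STH replicate 2 the log2 fold change was -3.82, and the call was lost without QHMM replicate 1 (-2.71), QHMM replicate 3 (-2.46), STH replicate 1 (-2.41) or STH replicate 3 (-2.63). Although the MYL6B change had the largest size, its log2 ratio to OMYHCS did not separate the breeds, with a mean difference of -1.70 and overlapping animals (exact permutation test, two-sided, p = 0.2, adjusted 0.440).

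MYL3, the slow essential light chain shared with the heart ventricle, ran the other way among the QHMM animals. Its normalized counts were 4937, 16751 and 5530 in QHMM against 1040, 3407 and 3267 in STH. QHMM replicate 2, the lowest QHMM animal for MYL6B, was the highest by far for MYL3. The log2 fold change was -1.82 (SE 0.54, edgeR FDR 0.0951, not called), and it was -1.02 without QHMM replicate 2. The RPKM ratio of MYL6B to MYL3 was 3.45 and 3.76 in QHMM replicates 1 and 3 and 0.329 in QHMM replicate 2, against 0.589, 1.19 and 0.446 in the STH animals.

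Summed over both slow essential light chains, the QHMM animals were closer to each other than for either gene alone. The sum of MYL3 and MYL6B was 1809, 1545 and 2210 RPKM in QHMM and 161, 671 and 328 RPKM in STH. Set against MYL1, the fast essential light chain, the slow chains made up 52.6%, 45.2% and 48.7% of the summed RPKM in QHMM and 13.2%, 37.6% and 19.6% in STH. The breeds did not overlap, and the log2 ratio differed by -1.77 (exact permutation test, two-sided, p = 0.1, adjusted 0.440, where 0.1 is the smallest value that 3 against 3 animals allow). This sum was formed after the values of both genes were seen. MYL6, the gene next to MYL6B in the RefSeq annotation and the light chain of smooth muscle and non-muscle cells, was not called (log2 fold change -0.58, SE 0.25, edgeR FDR 0.244).

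**Figure D3:**
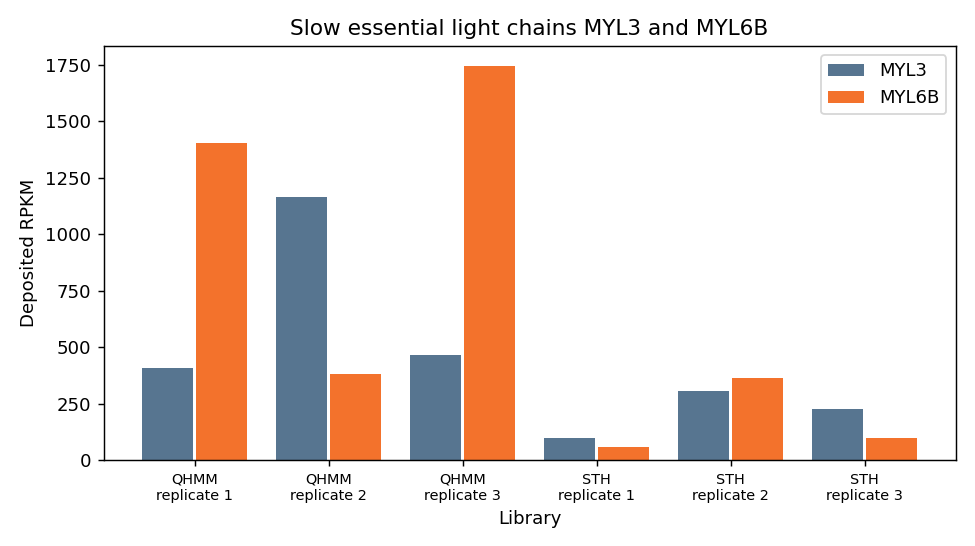
Deposited RPKM of the slow essential light chains MYL3 and MYL6B in each library, as bars from 0 with 1 pair per animal. MYL6B is the higher of the pair in QHMM replicates 1 and 3 (1402 and 1746 RPKM) and MYL3 in QHMM replicate 2 (1163 RPKM), and both are at most 364 RPKM in each STH animal.

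The troponin subunits of slow fibres had log2 fold changes between -1.37 and -1.07. TNNT1, which anchors the complex to tropomyosin, had normalized counts of 40942, 40934 and 51541 in QHMM and 13582, 19168 and 19037 in STH. QHMM replicates 1 and 2 were nearly equal after TMM scaling (4193 and 3531 in RPKM), and every QHMM animal was above every STH animal. TNNT1 fell by 1.37 on the log2 scale (SE 0.27, edgeR FDR 0.0240), 2.58-fold, and was called without STH replicate 1 or STH replicate 3 but not without any of the other 4 libraries, with values from -1.46 to -1.23.

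TNNC1, the calcium sensor of slow and heart muscle, had normalized counts of 43611, 39378 and 57621 in QHMM and 14806, 24683 and 24534 in STH. The breeds were again apart, although the spread within each was wider than for TNNT1. Its log2 fold change of -1.14 (SE 0.30) missed the threshold with an edgeR FDR of 0.0647, and DESeq2 called it. TNNT1 and TNNC1 kept nearly the same proportion in all animals. The RPKM ratio of TNNT1 to TNNC1 was 0.844, 0.935 and 0.804 in QHMM and 0.825, 0.698 and 0.698 in STH (exact permutation test, two-sided, p = 0.2, adjusted 0.440).

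For TNNI1, the slow inhibitory subunit (LOC101112151), normalized counts came to 4090, 3269 and 3706 in QHMM and to 1368, 2027 and 1861 in STH. The gap between the breeds was wider than the range within either of them. TNNI1 fell by 1.07 on the log2 scale (SE 0.24, edgeR FDR 0.0404), the change nearest to 0 of the 10, and it was called in none of the 6 fits that left out 1 library, with values from -1.21 to -0.94. Its level per length was far below that of its partner subunits, at 221, 149 and 204 RPKM in QHMM and 87.5, 119 and 84.8 RPKM in STH. The length implied by the RPKM values was 1446 bases for TNNI1, against 763 for TNNT1 and 686 for TNNC1.

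TPM3 encodes the slow alpha-tropomyosin and also non-muscle tropomyosins. Normalized counts were 18646, 17407 and 29962 in the QHMM animals and 8715, 12159 and 8780 in the STH animals. QHMM replicate 3 was well above the other animals of its breed. The log2 fold change was -1.15 (SE 0.29, edgeR FDR 0.0603, not called), and DESeq2 called it. A second row, LOC101118433, which the files describe as TPM3-like, followed TPM3 through the animals, with normalized counts of 3565, 3535 and 5149 in QHMM and 1829, 2231 and 1813 in STH. This row fell by 1.06 on the log2 scale (SE 0.25, edgeR FDR 0.0440). Its log2 ratio to TPM3 had an SD of 0.112 over the 6 animals, and since similar sequences can share reads, the rows may not be independent.

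Slow and fast isoforms were compared by setting each slow gene against its fast counterpart within the same library, a ratio that does not depend on scaling between libraries. OMYHCS was set against the summed fast chains OMYHC2X, OMYHC2A and MYH4, where the first and second are the names in the files for the 2x and 2a chains. Its share of that RPKM sum was 22.8%, 17.7% and 19.2% in QHMM and 11.0%, 13.7% and 9.22% in STH. MYL2 took 22.0%, 13.5% and 15.6% of the sum with MYLPF, the fast regulatory light chain, in QHMM and 8.30%, 12.7% and 5.52% in STH. Both pairs separated the breeds, with differences in the log2 ratio of -0.97 for OMYHCS and -1.13 for MYL2 (exact permutation tests, two-sided, p = 0.1 each, 0.3 after Benjamini-Hochberg adjustment over 6 pairs). At 3 against 3 animals, the test cannot go below 0.1.

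In the other pairs the breeds overlapped. TNNC1 made up 25.4%, 17.2% and 25.5% of the sum with the fast form TNNC2 in QHMM and 12.2%, 17.8% and 10.6% in STH. TPM3 made up 4.61%, 2.88% and 6.73% of the sum with TPM1 in QHMM and 3.07%, 3.57% and 1.70% in STH, and TNNI1 made up 1.65% to 2.68% and 0.811% to 1.72% of the sum with TNNI2. For each of these 3 genes, the share in QHMM replicate 2 was below that in STH replicate 2. MYL3 made up 16.6% to 38.3% of the sum with MYL1 in QHMM and 8.72% to 21.5% in STH. The differences in the log2 ratio were -0.92 for TNNC1, -0.78 for TPM3, -0.73 for TNNI1 and -0.94 for MYL3 (exact permutation tests, two-sided, p = 0.2, 0.3, 0.2 and 0.3, and 0.3 each after adjustment). No ratio was formed for TNNT1, since the fast form TNNT3 is listed at 0 in all 6 libraries. TNNT3 is a main troponin of fast fibres, and whether this 0 reflects the annotation or the counting was not tested.

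**Figure D4:**
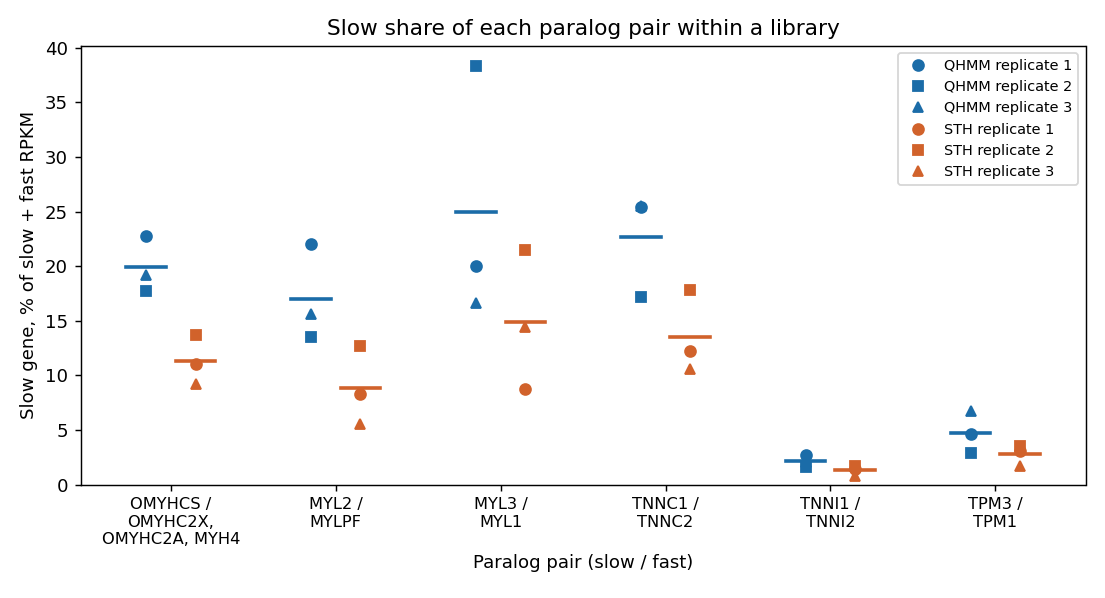
Share of the slow gene in the summed RPKM of each slow and fast pair, in percent, with 1 point per animal and bars at the breed means. STH points lie below QHMM points for OMYHCS (at most 13.7% against at least 17.7%) and MYL2 (at most 12.7% against at least 13.5%), and overlap for MYL3, TNNC1, TNNI1 and TPM3.

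Over the whole pool of 9 sarcomeric heavy chains, OMYHCS held 22.1%, 17.3% and 18.7% of the RPKM sum in QHMM and 10.8%, 13.5% and 9.04% in STH. MYH6 held at most 1.43% and MYH7B a mean of 0.138% in QHMM and 0.0531% in STH. The share of the fast 2x chain OMYHC2X was higher in STH, at 67.0%, 67.0% and 67.7% against 55.4%, 53.2% and 57.6%, with no overlap. The shares of OMYHC2A overlapped between the breeds (18.5% ± 3.42 in QHMM and 14.9% ± 1.28 in STH, SD, n = 3), as did those of MYH4. As shares sum to the whole, a higher share of one chain does not show a higher level of it. The normalized counts of OMYHC2X overlapped (577643 to 709288 in QHMM and 435033 to 650306 in STH), and its log2 fold change was -0.22 (SE 0.28, edgeR FDR 0.730).

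**Figure D5:**
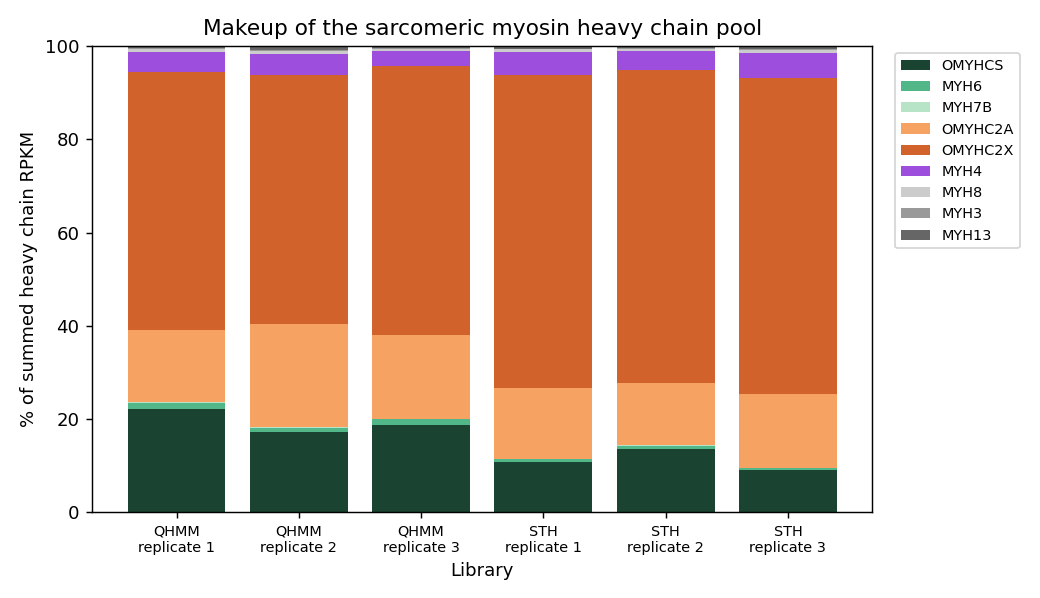
Makeup of the sarcomeric myosin heavy chain pool in each library, as the percentage of the summed deposited RPKM of 9 heavy chain rows. OMYHCS takes 17.3% to 22.1% of the bar in the QHMM animals and 9.04% to 13.5% in the STH animals, and OMYHC2X takes 53.2% to 57.6% and 67.0% to 67.7%.

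The fast-fibre contractile genes served as the counterpart list. Of its 14 genes, 12 were tested and 0 were called by edgeR, which called 3.45% of all genes in either direction. An unadjusted p below 0.05 was found for 3 of the 12 (19.2% of all genes), and DESeq2 called 1, ACTN3 (7.8% of all genes). All 12 log2 fold changes were negative, where 48.2% of all genes tested were negative, with a median of -0.33. ACTN3, the alpha-actinin of fast fibres, had the lowest value (-1.02, SE 0.36, edgeR FDR 0.155), followed by OMYHC2A (-0.82, SE 0.32, FDR 0.200) and MYL1 (-0.80, SE 0.30, FDR 0.171). PVALB, the calcium buffer of fast fibres, did not pass the filter on low counts, with normalized counts of 240, 3.51 and 133 in QHMM and 8.25, 3.21 and 0 in STH. Without STH replicate 3, ACTN3 was called (2.56% of all genes in either direction), and PVALB was tested and called without QHMM replicate 2 (1.61%). With library totals alone, the median of all genes moved from 0.023 to 0.145 and that of the fast list to -0.24, with all 12 still negative. The median of the 9 slow genes was then -1.32, all 9 were negative with an unadjusted p below 0.05 (17.4% of all genes), and 3 were called (OMYHCS, MYH6 and TNNT1), where 0.736% of all genes were called lower.

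Further genes that slow fibres use were examined as a list of 16, of which 15 had a row and were tested and MB had none. The list also held the TNNI1 row, which is among the 10 slow-fibre genes, and the TPM3-like row. Its counts and median are therefore not fully separate from those of the slow-fibre genes. In all, 5 were called and all 5 were lower in STH, where 1.83% of all genes were called lower. They were CASQ2, LDHB, MYLK3 and the TNNI1 and TPM3-like rows already described. The list had 11 negative and 4 positive log2 fold changes, with a median of -0.87. Fits that dropped 1 animal called fewer of the list. Percentages in brackets are the share of all genes called in either direction by the same fit, against 3.45% with all 6 libraries. Dropping QHMM replicate 1 (1.03%), STH replicate 2 (1.42%) or STH replicate 3 (2.56%) gave a count of 0 among the 15. A count of 1 came from dropping QHMM replicate 2 (1.61%) or QHMM replicate 3 (1.17%), and 3 from dropping STH replicate 1 (4.21%). In each of the 3 fits with a count of 0, 9 of the 15 had an unadjusted p below 0.05 by edgeR, as did 13.5% to 19.4% of all genes. DESeq2 on all libraries called 8 of the 15, where it called 7.8% of all genes in either direction.

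CASQ2, the calcium-binding protein of the sarcoplasmic reticulum in slow and heart muscle, had normalized counts of 645, 420 and 800 in QHMM and 322, 250 and 178 in STH (log2 fold change -1.31, SE 0.30, edgeR FDR 0.0409). LDHB, the lactate dehydrogenase subunit of oxidative tissue, had 1727, 1378 and 1735 in QHMM and 990, 784 and 729 in STH (-0.95, SE 0.22, edgeR FDR 0.0459). MYLK3, a kinase of the regulatory light chain, had 261, 235 and 304 in QHMM and 151, 57.7 and 73.9 in STH (-1.49, SE 0.34, edgeR FDR 0.0438). For these 3 genes each STH animal was below each QHMM animal in normalized counts, as for 11.7% of all genes tested. In RPKM, without the TMM factors, MYLK3 stayed apart but CASQ2 and LDHB overlapped. CASQ2 had 21.3 RPKM in QHMM replicate 2 and 23.0 in STH replicate 1, and LDHB had 75.1 and 75.8.

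Further partners did not pass the test. ATP2A2, the calcium pump of slow fibres, had 17698, 19891 and 23773 normalized counts in QHMM and 11459, 14252 and 7809 in STH (-0.87, SE 0.29, edgeR FDR 0.125). Its inhibitors PLN and SLN had log2 fold changes of -1.11 (FDR 0.161) and -0.71 (FDR 0.271). In normalized counts neither overlapped between the breeds, where 11.7% of all genes tested had all STH animals below all QHMM animals. For PLN the lowest QHMM animal was only 1.04 times the highest STH animal. In RPKM PLN overlapped, with 14.5 in QHMM replicate 2 and 18.0 in STH replicate 2. MYBPC1, the slow myosin-binding protein C, overlapped between the breeds (-0.20, FDR 0.749), with 31270 to 53385 normalized counts in QHMM and 32352 to 39939 in STH. CSRP3, a stretch-sensing protein of the Z disc, had the opposite sign, at 2701, 1029 and 10889 in QHMM and 13971, 17850 and 24291 in STH (1.94, SE 0.67, edgeR FDR 0.144). The breeds did not overlap for CSRP3, but the QHMM animals differed widely from each other. FHL1 had a log2 fold change of 0.36 (FDR 0.569).

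Of 28 regulators of fibre type, 26 had a row and were tested (RCAN1 and CAMK2A had none), and 2 were called, 1 in each direction. RXRG, the retinoid X receptor of skeletal muscle, fell by 2.01 on the log2 scale in STH (SE 0.34, edgeR FDR 0.0143), with normalized counts of 1119, 1444 and 766 in QHMM and 313, 155 and 360 in STH. HDAC4, a repressor of MEF2-driven transcription, rose by 1.11 (SE 0.26, edgeR FDR 0.0475), with 71.4, 76.1 and 98.5 in QHMM and 140, 212 and 181 in STH. The RXRG call was kept without any 1 library, whereas that of HDAC4 was kept only without STH replicate 1. Neither was called without QHMM replicate 2 and STH replicate 3 together. Of all genes tested, 1.83% were called lower and 1.62% higher in STH. The regulators had 18 negative and 8 positive log2 fold changes with a median of -0.37.

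The other regulators tested were not called. The calcineurin subunits PPP3CA and PPP3CB had log2 fold changes of -0.64 (FDR 0.186) and -0.81 (FDR 0.0913), and their target NFATC1 one of -0.70 (FDR 0.166). The coactivators PPARGC1A and PPARGC1B stood at -0.85 (FDR 0.367) and -1.49 (FDR 0.0814). SOX6, which represses slow-fibre genes in fast fibres, had 443, 431 and 477 normalized counts in QHMM and 254, 245 and 286 in STH, which do not overlap, and missed the threshold (-0.78, SE 0.20, edgeR FDR 0.0582). CAMK2B, a subunit of a calcium-dependent kinase, had the opposite sign and no overlap, with 531, 702 and 641 in QHMM and 971, 1042 and 961 in STH (0.67, SE 0.20, edgeR FDR 0.105). The nuclear receptors ESRRA and PPARD stood at 0.00 (FDR 0.997) and -0.02 (FDR 0.975). The most abundant regulators that were not called were MEF2C (-0.40, FDR 0.662), PPP3CB, MEF2D (-0.38, FDR 0.438), TBX15 (0.31, FDR 0.480) and HDAC5 (0.19, FDR 0.652). PLN, PPP3CA, NFATC1, PPARGC1A, PPARGC1B, SOX6, CAMK2B, ESRRA, PPARD, ACTN3, MYL6, COL15A1 and IDH3A were chosen after their values were seen.

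Adipocyte markers fell in STH beside the slow-fibre genes. Of 5 adipocyte markers, 4 were called lower in STH, where 1.83% of all genes were (ADIPOQ at -2.13, PLIN1 at -2.37 and CIDEC at -2.44 on the log2 scale, and LEP) and FABP4 was not (-0.04), and their summed normalized counts were 1491 to 4987 in QHMM and 669 to 1033 in STH. Fibroblast markers (COL1A1, DCN and PDGFRA) summed to 10609 to 17119 in QHMM and 4447 to 8947 in STH, with 0 of 3 called by edgeR, 1 at an unadjusted p below 0.05 (19.2% of all genes) and 1 called lower by DESeq2 (COL1A1, 4.44% of all genes). Endothelial markers summed to 7339 to 7610 in QHMM and 7902 to 9164 in STH, with 0 of 3 called by edgeR or DESeq2 and 0 at an unadjusted p below 0.05. The part of these differences in the slow-fibre results was not tested. The sums of smooth muscle markers overlapped between the breeds (3575 to 8037 and 3992 to 6687), as did those of developing fibres (6812 to 11631 and 4038 to 8840) and blood (106 to 216 and 99.7 to 190, for the 3 of 6 with a row). All 3 tested markers of developing fibres had negative log2 fold changes, with 0 called by edgeR. Of these 3, only MYH3 did not overlap (-0.79, edgeR FDR 0.172), where 11.7% of all genes tested had all STH animals below all QHMM animals.

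The ranking of the animals by normalized counts was not the same for all slow-fibre genes. QHMM replicate 2 was the lowest QHMM animal for each of the 10 genes other than OMYHCS, for which it was QHMM replicate 3, and MYL3, for which it was QHMM replicate 1. STH replicate 2 was the highest STH animal for each gene other than OMYHCS and MYH6, for which STH replicate 1 was. STH replicate 1 was the lowest STH animal for MYL2, MYL3, MYL6B, TPM3 and the 3 troponins, and STH replicate 3 for the 3 heavy chains. This last split depended on the scaling. In RPKM, STH replicate 3 was also the lowest for MYL2, TPM3, TNNT1 and TNNI1. Its values were 1694, 264, 1644 and 84.8 RPKM, against 2142, 367, 1646 and 87.5 RPKM in STH replicate 1.

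Likeness to OMYHCS was measured as the SD over the 6 libraries of the log2 ratio of normalized counts, among 7128 genes with a mean normalized count of at least 100, where a smaller SD means a more similar pattern. The libraries are shared by all genes and the measure carries no test. The closest genes were MYH6 (SD 0.152), TNFAIP2 (0.170), ALAS1 (0.171), the enzyme that starts haem synthesis, CD93 (0.174) and TPI1 (0.215), an enzyme of glycolysis. MYH6 is a close relative of OMYHCS, and their rows may not be independent. Of the other slow-fibre genes, TNNI1 ranked 33 (0.303), TNNT1 ranked 75 (0.345) and MYL2 ranked 179 (0.405), whereas MYH7B ranked 4779 (0.915), MYL3 ranked 5026 (0.935) and MYL6B ranked 6915 (1.474). With a minimum mean of 1000, among 1329 genes, COL15A1 and IDH3A replaced TNFAIP2 and CD93.

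The SDs around MYL6B were larger. Its closest genes were C2H9orf41 (SD 0.639), LOC101108849 (0.881), GPCPD1 (1.08), the adipocyte hormone ADIPOQ (1.10) and MYH7B (1.11), which is the only slow-fibre gene among them. TNNT1 was closest to TNNC1 (0.165), and TPM3 to its TPM3-like row (0.112). The third closest gene to MYL2 was TNNT1 (0.266).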

How the data were processed

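Poly(A) RNA of longissimus muscle from 3 QHMM and 3 STH animals was sequenced on an Ion Proton instrument. The authors mapped filtered reads to the sheep genome Oar 3.1 and deposited counts of uniquely mapped reads per gene. They also deposited RPKM values, scaled by gene length and library total. The aligner and counter are not given in the sources used here, nor is the use of strand.

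Both tables were joined by gene name, which left 23119 genes after 25 names that had been turned into dates were dropped from the RPKM table. Counts were tested in R 4.3.3 with edgeR 4.0.16 (TMM, filterByExpr, quasi-likelihood F test, breed as the only term) on 12506 genes, with Benjamini-Hochberg adjustment. EBSeq, used in the paper, was not installed. Ratios of RPKM were compared by exact permutation tests over animals (SciPy 1.17.1). Normalized counts were scaled to the mean effective library of 12931963 reads. Library totals were 10982191 to 14334544. The fits were tested on simulated data. Alternatives used limma 3.58.1 and DESeq2 1.42.0.

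The genes and lists were chosen with earlier results of these data known, so they are no independent support for a direction. Named genes are the 10 slow-fibre genes, their fast counterparts, the called genes of each list with up to 5 others by mean count, and the 5 genes most like OMYHCS and MYL6B. MYH1 and MYH2 were read from the rows OMYHC2X and OMYHC2A. Nothing states separate litters, so the tests took the animals as independent without a check, and the p-values concern these animals only. RefSeq served for names and neighbours, with no coordinates, since its assembly differs from Oar 3.1.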

Additional observations from a re-analysis of the deposited data

How the results depend on the processing

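All 9 slow-fibre genes found by symbol and the TNNI1 row had negative log2 fold changes in each of the 12 alternatives with all libraries, the 6 fits without 1 library and the fit without QHMM replicate 2 and STH replicate 3, which was added after the data were seen. Of the 9, 6 were called, and 3 were called with library totals alone, 0 by TREAT against the minimum fold change, 0 by limma-trend on log2(RPKM + 1) with no filter (TREAT called 0.84% and limma-trend 0.442% of all genes), 1 to 4 without 1 library and 0 without both low-factor libraries. The partner list (5 called) gave 8 by DESeq2, 0 with library totals alone, 0 by TREAT, 1 by limma-trend with either pseudocount, 0 with no filter on RPKM, 0 to 3 without 1 library and 0 without both low-factor libraries. The regulators (2 called) gave 5 by DESeq2, 1 with upper-quartile scaling, library totals alone, TMM without the slow and fast genes, TREAT or either filtered limma-trend, 0 with no filter on RPKM, 1 to 3 without 1 library and 0 without both low-factor libraries. The fast list (0 called) gave 1 by DESeq2, 1 with no filter on low counts, 0 to 1 without 1 library and 1 without both. Of all genes, in either direction, DESeq2 called 7.8%, upper-quartile scaling 3.25%, library totals alone 2.0% and TMM without the slow and fast genes 3.43%. The fit with no filter on low counts called 4.56% and TREAT 0.84%. Limma-trend called 3.11% with a pseudocount of 1, 2.94% with 0.1 and 0.442% with no filter. The fits without 1 library called 1.03% to 4.21%, and that without both low-factor libraries called 0.0864%. An unadjusted p below 0.05 was reached by all 9 slow-fibre genes in the 3 fits that called 0 of them (8.94% to 15.4% of all genes). EdgeR with robust dispersions called 4 of the 9 (1.83% of all genes lower), without MYL6B (FDR 0.149) and MYH7B (FDR 0.0702). Filtered limma-trend called 5 with a pseudocount of 1 and 4 with 0.1 (1.2% and 1.12% of all genes lower). MYL6B and MYH7B were each called in 6 of the 12 alternatives. The causes were not tested. All 6 slow to fast ratios kept their direction.

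Correlations of deviations from the breed mean were 0.226, -0.038 and -0.13 between same-numbered animals, and -0.263 to 0.287 between differently numbered ones. So few animals cannot exclude a pairing by replicate number. With the replicate number as a block, 6 of the 9 slow-fibre genes were called (MYL6B lost, MYL3 gained), 3 of the partner list, and 457 of all genes against 432. With 3 animals a breed, differences smaller than the spread between animals could not be detected.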
